A study of Drosophila melanogaster with 10 samples.

Results

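Glutathione transferases are detoxification enzymes, and the transcripts of 10 of their genes were followed here in Drosophila melanogaster embryos: GstD1, GstD2, GstD3, GstD5 and GstD9 of the delta class, GstE1, GstE3, GstE6 and GstE7 of the epsilon class, and GstS1 of the sigma class. A gene was included when the platform annotation of the Affymetrix array gave its symbol alone to a probe set. Each of the 10 genes had 1 probe set, out of 10844 genes named on the array, and 25 other glutathione transferase genes were named there as well. Of the 10 members, 9 passed a filter on dim probe sets (a mean signal over the 10 arrays above 53.4) and were tested. GstD3 did not pass.

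Glutathione transferases join the tripeptide glutathione to electrophilic compounds, which makes these compounds more soluble and easier to remove. Substrates include insecticides, plant toxins and reactive aldehydes such as 4-hydroxynonenal that arise when membrane lipids are oxidized. Many delta and epsilon genes of the fly are induced by oxidants through the transcription factor encoded by cnc, the fly relative of Nrf2, which the Keap1 protein restrains. GstD1 is a widely used reporter of that response. The delta and epsilon genes lie in tandem clusters on chromosome arms 3R and 2R.

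The study asked which transcripts respond to ionizing radiation through the fly p53 factor. Embryos collected at 0 to 2.5 h after egg laying were kept for 2.5 h at 25 °C, given 40 Gy of gamma radiation or a mock treatment, and left to recover for 1.5 h before whole-embryo RNA was prepared. Wild-type (WT) collections were of the strain yw (1 control and 1 irradiated array, called a set here) and the strain w1118 (2 sets), and the p53 mutant collections were of the strain Dmp53NS (2 sets). What the Dmp53NS allele removes is not stated in the labels. The mutant arrays are 1 strain, so its p53 genotype and the rest of its genetic background cannot be told apart. The labels call the arrays biological replicates. In such whole-embryo RNA a change in the number of expressing cells and a change in RNA per cell cannot be told apart.

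Run records place the yw set alone on hybridization day 1, with a chip lot and fluidics protocol of its own, and place 1 w1118 and 1 mutant set on each of days 2 and 3. The strain yw and day 1 therefore cannot be told apart. Values are MAS5 signals in arbitrary units, with a median of 63.2 to 108 per array, and only 10 arrays limit the precision. As a measure of RNA integrity, signal near the 3′ end of eIF-4a was 12.2 times that near its 5′ end on the irradiated array of w1118 set 2. The ratio was 5.92 for the mutant set 2 control and 1.56 to 3.13 for the other arrays. The p53 probe set read 233 to 505 on WT and 104 to 213 on mutant arrays. Its position relative to the mutation is not given, so it checks nothing about the labels.

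**Figure D1:**
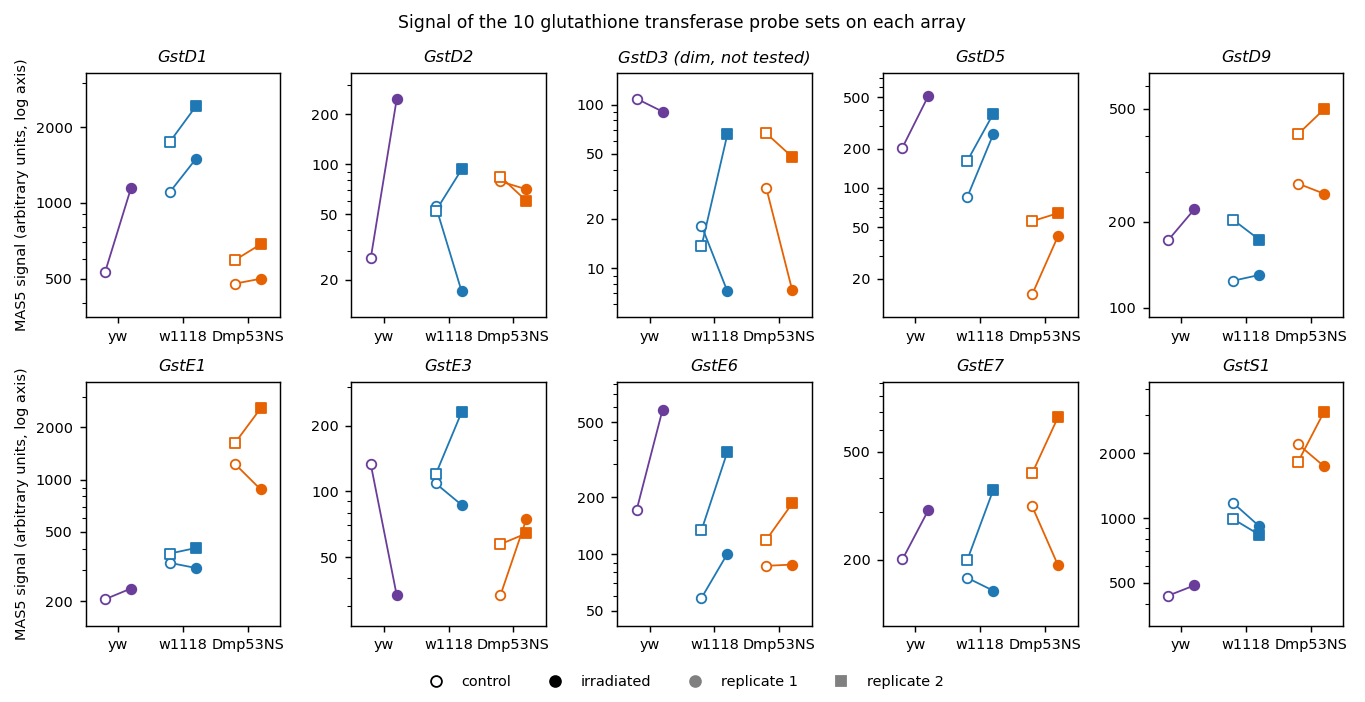
MAS5 signal (log axis, arbitrary units) of the 10 genes on each of the 10 arrays, by strain. Open symbols are control and filled symbols irradiated arrays, lines join the arrays of a set, and circles and squares are replicates 1 and 2. GstE1 and GstS1 lie highest on the Dmp53NS arrays, GstD5 lies lowest there, and GstD5 is higher on the irradiated array of every WT set.

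Irradiation in WT embryos went with higher signals of GstD5, GstE6 and GstD1, but none of the 9 tested members passed the test over all probe sets. GstD5, a delta class enzyme, was 205 in the yw control and 515 after irradiation, and in w1118 it was 85.2 and 162 in controls against 260 and 373 after irradiation. The irradiated arrays were higher in each of the 3 WT sets and did not overlap with the controls. The fitted change was 1.29 log2, or 2.44-fold (SE 0.33, 95% interval 0.61 to 1.97, limma adjusted p = 0.155). All fitted changes are on the log2(signal + 14.5) scale, which understates those of dim probe sets.

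GstE6, an epsilon class enzyme, was 171 in the yw control and 582 after irradiation, and in w1118 it was 58.6 and 134 in controls against 101 and 349 after irradiation. It was higher within each WT set, although the irradiated array of w1118 set 1 lay within the range of the controls. The change was 1.21 log2, or 2.31-fold (SE 0.32, 95% interval 0.55 to 1.87, limma adjusted p = 0.164). GstD1, which can break down DDT, was 529 in the yw control and 1143 after irradiation. In w1118 it was 1104 and 1749 in controls against 1494 and 2419 after irradiation. The groups overlapped across sets, because the sets started from different levels, but each irradiated array was above its own control. The change was 0.66 log2, or 1.58-fold (SE 0.22, 95% interval 0.21 to 1.12, limma adjusted p = 0.349), with 1.09 in the yw set and 0.43 and 0.46 in the w1118 sets.

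Over all 8379 probe sets tested, limma called 0.239% for WT irradiation, and 0 of the 9 members were among them. At an unadjusted p under 0.05 there were 3 of 9 members (GstD1, GstD5 and GstE6) beside 8.15% of all probe sets. The same 3 were higher after irradiation in all 3 WT sets, as were 15.4% of all probe sets. The median change of the 9 members was 0.41 log2, beside -0.01 over all probe sets tested. Members were chosen with earlier results of these data known, so setting them beside all probe sets is no test. The other 16 tested glutathione transferase genes had a median of -0.01 log2, and 8 of these 16 were positive. Without w1118 set 2, which holds the array with the high 3′ to 5′ ratio, the changes of GstD5, GstE6 and GstD1 were 1.36, 1.17 and 0.76 log2.

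The other tested members differed in direction between WT sets. GstD2 was 27.2 in the yw control and 248 in the irradiated array, but 56.1 and 52.1 in w1118 controls against 17.1 and 93.0 after irradiation. Its change of 0.73 log2 (95% interval -0.33 to 1.79) was -0.23 without the yw set. GstE3 went from 133 to 33.4 in yw, and from 109 and 120 to 86.7 and 230 in w1118, with a fitted change of -0.35 log2 (95% interval -1.23 to 0.54) that was 0.29 without the yw set. For GstE7 the set values were 0.57 log2 in yw and -0.14 and 0.81 in w1118. The changes of GstD9 (0.06 log2, 95% interval -0.52 to 0.64), GstE1 (0.07, -0.45 to 0.58) and GstS1 (-0.15, -0.62 to 0.33) were the smallest. The dim GstD3, whose protein lacks the amino-terminal stretch of other delta enzymes, read 109 in the yw control and 90.6 after irradiation. In w1118 it read 18.2 and 13.6 in controls and 7.2 and 66.0 after irradiation, with no common direction.

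**Figure D2:**
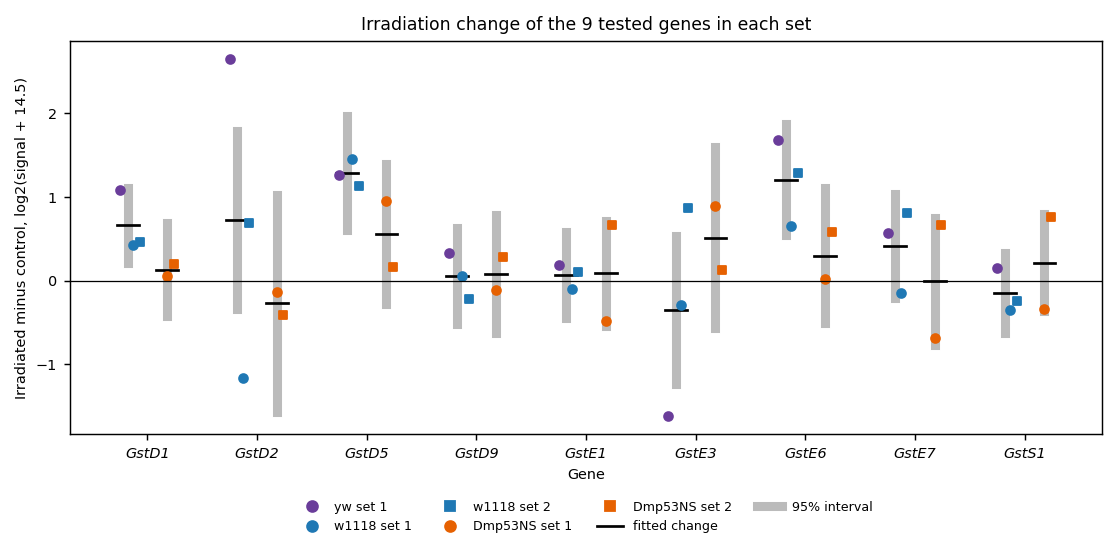
Irradiated minus control value on the log2(signal + 14.5) scale for each set (points), with the fitted WT (left) and mutant (right) change as a black line and its 95% interval in grey, for the 9 tested genes. The 3 WT points of GstD1, GstD5 and GstE6 all lie above 0, while those of GstD2 and GstE3 lie on either side of it.

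In Dmp53NS embryos, the same comparison asked what irradiation does in the p53 mutant strain, and none of the 9 members passed the test. GstD5 was 15.1 and 55.4 in controls and 42.7 and 64.0 after irradiation, a change of 0.56 log2 (95% interval -0.27 to 1.39). GstE6 was 86.7 and 119 in controls and 88.0 and 186 after irradiation (0.30 log2, -0.51 to 1.11). GstD1 was 477 and 592 in controls and 499 and 685 after irradiation (0.13 log2, -0.42 to 0.69). For these 3 genes both mutant sets were higher after irradiation, by 0.02 to 0.95 log2. The fitted changes of all 9 ran from -0.27 to 0.56 log2 with a median of 0.13, beside 0.02 over all probe sets. The mutant sets disagreed in direction for GstE1 (-0.48 in set 1 and 0.66 log2 in set 2), GstE7 (-0.68 and 0.67) and GstS1 (-0.34 and 0.77), and also for GstD9 (-0.11 and 0.28). Limma called 0 of 9 members and 0% of all probe sets, with 0 members at an unadjusted p under 0.05 against 1.6% of all.

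Whether the response differs between genotypes was tested directly as the WT change minus the mutant change. The difference was 0.73 log2 for GstD5 (SE 0.52, 95% interval -0.34 to 1.80), 0.91 for GstE6 (SE 0.50, -0.14 to 1.95) and 0.53 for GstD1 (SE 0.34, -0.19 to 1.24). The intervals hold 0 and also hold differences as large as the WT changes. Limma called 0 of 9 members (0 at an unadjusted p under 0.05), beside 0.0119% of all probe sets called and 3.37% at an unadjusted p under 0.05.

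Dmp53NS embryos had more GstE1 and GstS1 signal and less GstD5 signal than WT embryos. Against the mean of both WT strains, GstD5 passed the test among irradiated embryos alone. The members' fitted differences between mutant and WT ran from -1.91 to 2.33 log2 among controls and from -2.63 to 2.32 among irradiated embryos. GstE1, an epsilon enzyme that conjugates 4-hydroxynonenal, read 205 and 236 in yw and 310 to 404 in w1118, against 1235 and 1615 on mutant control and 878 and 2568 on mutant irradiated arrays. Every mutant array lay above every WT array. The mutant was higher by 2.33 log2, or 5.03-fold, without irradiation (SE 0.43, limma adjusted p = 0.0297) and by 2.32 log2 with it (SE 0.43, limma adjusted p = 0.0329). GstS1, the sigma class enzyme abundant in adult flight muscle, was 437 and 487 in yw, 838 to 1176 in w1118 and 1743 to 3111 in the mutant, again without overlap. It was higher in the mutant by 1.52 log2 without irradiation (SE 0.33, limma adjusted p = 0.0385) and by 1.81 log2 with it (SE 0.33, limma adjusted p = 0.0324).

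GstD5 moved the other way, with 205 and 515 on yw, 85.2 to 373 on w1118 and 15.1 to 64.0 on mutant arrays, so that every mutant array lay below every WT array. It was lower in irradiated mutant than in irradiated WT embryos by a log2 difference of -2.63 (SE 0.45, limma adjusted p = 0.0317), and among controls the difference was -1.91 (SE 0.45, limma adjusted p = 0.0509). GstD1 read 477 to 685 in the mutant, 1104 to 2419 in w1118, and 529 and 1143 in yw. Only w1118 was clear of the mutant range, since the yw control lay inside it. Against the mean of both WT strains GstD1 did not pass among controls (-0.68 log2, adjusted p = 0.215) or irradiated embryos (-1.31 log2, adjusted p = 0.0646).

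Limma thus called 2 of 9 members among controls, beside 3.88% of all probe sets, and 3 of 9 among irradiated embryos, beside 2.85%. The mutant arrays lay outside the WT range for 4 of 9 members (GstD9, GstE1 and GstS1 above, GstD5 below), and for 14.5% of all probe sets. Leaving out the yw set cut the calls over all probe sets from 227 higher and 98 lower to 53 and 13 among controls. Among irradiated embryos they fell from 166 and 73 to 17 and 13. That run also ended every one of the members' calls: GstS1 was then 0.89 log2 higher among controls (adjusted p = 0.265) and GstE1 1.96 log2 higher (adjusted p = 0.0889). Without w1118 set 2 the control call of GstS1 ended (1.46 log2, adjusted p = 0.0513). Leaving out either mutant set ended them too, and in those fits limma called 0 of 8379 probe sets for either treatment, with 1004 to 2090 at an unadjusted p under 0.05.

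Set against w1118 alone, with which the mutant shared days, GstE1 was 2.00 log2 higher in the mutant as the mean over treatments (SE 0.37, limma adjusted p = 0.0227). GstD1 was 1.52 log2 lower, with a difference of -1.52 (SE 0.28, limma adjusted p = 0.0227), and GstD5 had a difference of -1.91 (SE 0.39, limma adjusted p = 0.0318). GstS1 missed the threshold at 1.14 log2 (SE 0.28, adjusted p = 0.0598). The call covered 3 of 9 members, beside 3.51% of all probe sets, and 6 of 9 had an unadjusted p under 0.05, beside 20.9% of all. Without w1118 set 2, where a lone w1118 set remains, the differences were -1.18 log2 for GstD1 and -1.58 for GstD5. Neither passed then, while calls over all probe sets fell as well. Without either mutant set, where a lone mutant set remains, the calls of all probe sets ended and not only those of the 3. Within days, GstE1 differed by 1.46 to 2.63 log2 in the 4 pairs of mutant and w1118 arrays, GstD1 by -1.80 to -1.19, GstD5 by -2.30 to -1.34 and GstS1 by 0.87 to 1.87. All 4 mutant arrays lay outside the w1118 range for 6 of 9 members, and for 22% of all probe sets.

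With day as a fixed block, a fit that treats the arrays of a set as independent, 7 of 9 members passed for the mean over treatments, beside 29.5% of all probe sets. The 7 were GstE1, GstS1, GstD9 and GstE7 as higher and GstD1, GstD5 and GstE3 as lower in the mutant. In that fit 5 of 9 passed among controls, beside 14.4% of all probe sets, and 5 of 9 among irradiated embryos, beside 12.5%. GstD9, a delta enzyme, read 124 to 203 in w1118, 173 and 221 in yw and 251 to 497 in the mutant. Its day-blocked difference was 1.08 log2 (SE 0.21, limma adjusted p = 9.98e-04), and without the day it did not pass (adjusted p = 0.109). GstE3 read 86.7 to 230 in w1118 and 33.5 to 74.8 in the mutant, which did not overlap, with 133 and 33.4 in yw. GstE7 read 154 to 362 in w1118 and 191 to 672 in the mutant, which did. GstE6 (-0.18 log2, 95% interval -1.19 to 0.83) and GstD2 (0.47 log2, -0.58 to 1.51) had mutant arrays within the w1118 range.

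**Figure D3:**
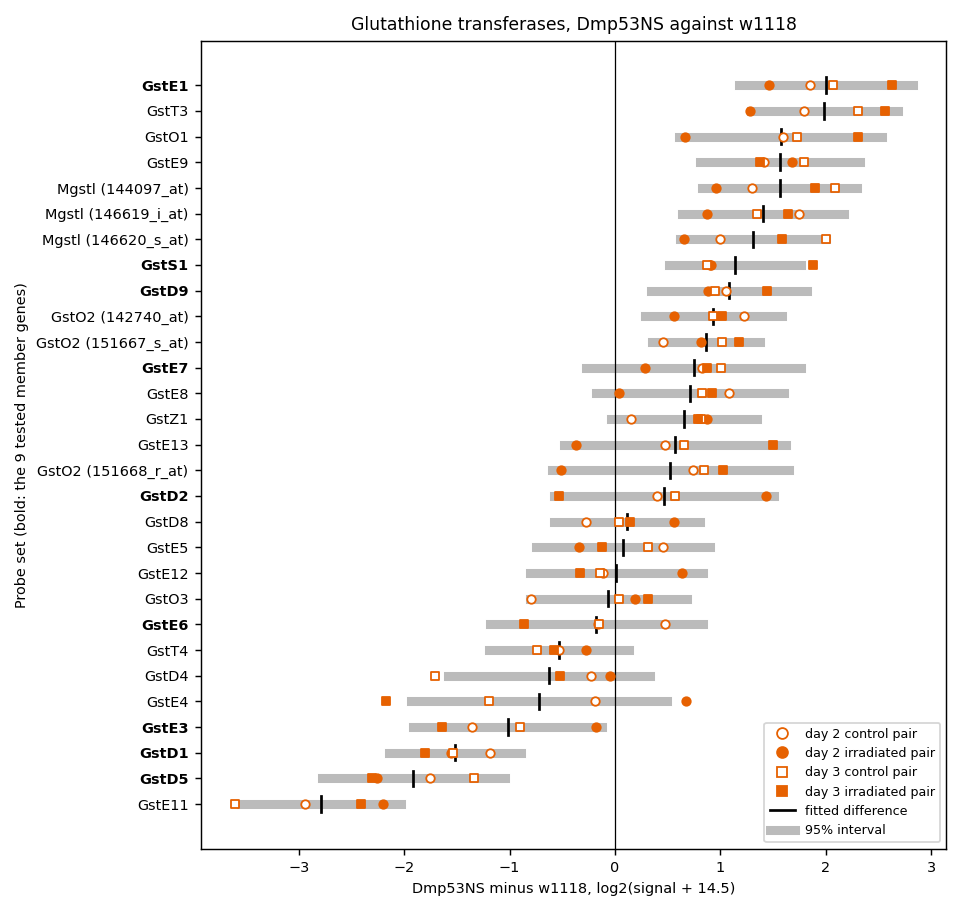
Dmp53NS minus w1118 on the log2(signal + 14.5) scale for the 29 glutathione transferase probe sets that passed the filter, members in bold. Points are the 4 pairs of arrays from the same day and treatment, black ticks the fitted difference and grey bars its 95% interval. GstE1 stands at the upper end at 2.00, and GstD5 and GstD1 near the lower end at -1.91 and -1.52.

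Stage markers moved with the mutant as well. The summed signal of 8 maternal transcripts was 3446 to 5222 on mutant arrays, against 1651 to 3131 on w1118 and 1500 to 1702 on yw arrays. Of the 8, bcd, swa and tor passed as higher in the mutant than in w1118, by 2.90, 2.21 and 3.40 log2. The maternal genes gcl (-0.67 log2, adjusted p = 0.188) and pgc (-0.41, adjusted p = 0.486) had differences of the other sign. The summed signal of 10 genes listed as later embryo was 3528 to 5005 on mutant arrays against 6133 to 8062 on w1118 and 7698 to 8359 on yw arrays. These sums were led by 2 bright genes. They were sna (983 to 1497 in the mutant, 1644 to 2454 in w1118) and Doc1 (1085 to 1643 and 1202 to 2460, which overlapped). Of the 10 genes, 0 passed limma singly (2 at an unadjusted p under 0.05, beside 20.9% of all probe sets). The 9 cellular blastoderm genes summed to 2128 to 3376 in the mutant and 2820 to 3742 in w1118, and 7 of the 9 were lower in the mutant by fitted value. The only one called against w1118, slam, went against the sums and was 1.33 log2 higher in the mutant (limma adjusted p = 0.048). Against the mean of both WT strains kni passed as lower among controls (-1.45 log2, limma adjusted p = 0.0476) but not among irradiated embryos (-0.02 log2). The part of these differences in those of the glutathione transferases was not tested.

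Markers of other tissues were set against w1118 in the same way, and 0 of 5 hemocyte, 0 of 4 fat body and yolk and 0 of 4 midgut and Malpighian tubule genes passed limma (2, 0 and 1 at an unadjusted p under 0.05, to be read against the same 20.9%). Their summed signals were 834 to 1147, 267 to 428 and 288 to 844 in the mutant and 1423 to 1705, 266 to 416 and 267 to 1105 in w1118, so that the hemocyte sums alone did not overlap. In yw the sums were 1152 to 1166, 273 to 944 and 357 to 839. The yw hemocyte sums thus lay below those of w1118 too and just above the mutant range. The hemocyte sums were led by gcm and srp, each of which overlapped between mutant and w1118. In the mutant gcm read 294 to 575 and srp 304 to 352, against 533 to 824 and 339 to 493 in w1118. Adult eggshell genes, a sign of mothers' tissue, gave 0 calls of 4 (1 unadjusted) and sums of 307 to 519 against 432 to 513, with 912 to 956 in yw. No marker gene read 0 on any array.

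The strains yw and w1118 differed in 0 of the 9 members by limma, while 2.73% of all probe sets passed. At an unadjusted p under 0.05 there were 2 of 9 members (GstD1 and GstS1), beside 23.9% of all probe sets. Both were lower in yw, by log2 differences of -1.05 (SE 0.34, adjusted p = 0.115) for GstD1 and -1.05 (SE 0.34, adjusted p = 0.115) for GstS1. The level of GstS1 was lowest in yw (462 ± 35.5, SD, n = 2), higher in w1118 (981 ± 144, n = 4) and highest in the mutant (2221 ± 627, n = 4), and no array of a strain overlapped with the next. GstE1 followed the same order, at 220 ± 22.1, 355 ± 42.2 and 1574 ± 727. GstD1 ran from the mutant (563 ± 94.8) over yw (836 ± 434) to w1118 (1692 ± 553), with yw overlapping both neighbours. These SDs include the irradiated arrays.

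Seen over all 10 arrays, the members did not vary as 1 block. Of the 36 pairs of tested members 20 had a positive Pearson correlation of log2 values, with a median of 0.07. GstE1 went most closely with GstS1 (r = 0.94), and then GstD9 with GstE1 (r = 0.87) and with GstE7 (r = 0.83). GstD1 went with GstD5 (r = 0.72) and GstD5 with GstE6 (r = 0.72), while GstD5 ran against GstS1 (r = -0.83) and GstE1 (r = -0.75). The 10 points share strain, day and set, so these values describe the arrays. The 5 named genes most like GstD1 were MTF-1, which encodes a metal-responsive transcription factor, CG9590, CG5805, Usp8 and CG12096, with r of 0.95 to 0.96 over 10 arrays. Those most like GstE7 were Alg13, Cbp20, Dlip2, Galphao and PQBP1, with r of 0.93 to 0.96.

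Some neighbouring genes of a cluster had values of different sign, and others had values of the same sign. In the Release 6 annotation the 11 GstD genes of the 3R cluster stand among 13 genes, in the order GstD10, GstD9, GstD1, GstD2, GstD3, GstD4, GstD5, GstD6, GstD7, GstD8 and GstD11. The neighbours GstD9 and GstD1 had fitted differences between mutant and w1118 of opposite sign (1.08 and -1.52 log2), of which that of GstD9 passed with the day block alone. In the 2R cluster of 10 GstE genes, GstE1 stands beside GstE2, which was dim at 3.60 to 14.2 in w1118 and 7.2 to 10.3 in the mutant. The next gene, GstE3, passed as lower in the mutant with the day block alone. GstE6 and GstE7 are adjacent, and irradiated arrays were above their controls in all 3 WT sets for GstE6 and in 2 of 3 for GstE7. Fitted WT irradiation changes were positive for every gene from GstE4 to GstE9 (0.16 to 1.21 log2). The adjacent GstE7, GstE8 and GstE9 were all higher in the mutant than in w1118 by fitted value (0.75, 0.71 and 1.56 log2). Clustered paralogs resemble each other in sequence, and how far their probe sets take up each other's transcripts was not tested.

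**Figure D4:**
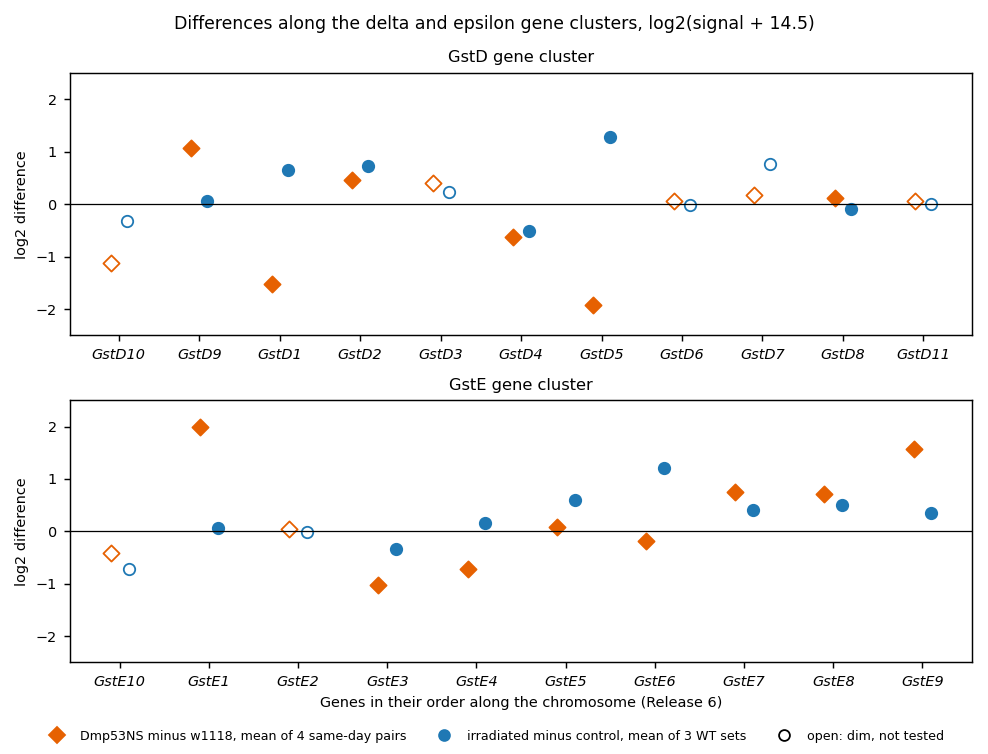
Genes of the GstD and GstE clusters in chromosomal order, with the mean Dmp53NS minus w1118 difference over 4 same-day pairs (diamonds) and the mean irradiation change over 3 WT sets (circles), both on the log2(signal + 14.5) scale. Open symbols are dim probe sets that were not tested. GstD9 (1.08) and GstD1 (-1.52) are neighbours on either side of 0.

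Of the 29 probe sets of the other 25 glutathione transferase genes, 20 probe sets of 16 genes were tested. For irradiation in WT embryos 0 of 20 passed limma (0 also at an unadjusted p under 0.05). The 3 largest changes there were -0.70 log2 for 1 GstO2 probe set, 0.59 for GstE5 and -0.55 for GstZ1. In mutant irradiation they were 0.33 for GstE11, 0.33 for GstE4 and -0.33 for GstT3, and for the difference -0.83 for GstD4, 0.78 for GstE5 and -0.76 for GstZ1. In the mutant against w1118, 3 of the 20 probe sets passed as higher and 1 as lower, beside 3.51% of all probe sets. GstE11, of the epsilon class, was 15.9 to 26.1 in the mutant and 172 to 355 in w1118, but also only 30.1 and 44.7 in yw (-2.79 log2 against w1118, SE 0.34, limma adjusted p = 0.00783, and for yw against w1118 -2.20, adjusted p = 0.0354). GstT3, of the theta class, was 333 to 695 in the mutant and 106 to 147 in w1118, while yw read 203 and 345 and overlapped with the mutant (1.98 log2, SE 0.31, limma adjusted p = 0.0145). GstO1 missed the threshold there (1.57 log2). GstE9 was 234 to 472 in the mutant and 78.5 to 173 in w1118 (1.56 log2, limma adjusted p = 0.0397), with 248 and 318 in yw.

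Mgstl, which encodes a membrane-bound enzyme of the microsomal class, has 3 probe sets. On 1 of them it was 778 to 1053 in the mutant, 173 to 425 in w1118 and 63.9 and 101 in yw (1.56 log2 against w1118, limma adjusted p = 0.0352, and -1.71 for yw against w1118, adjusted p = 0.0547). The other 2 were also higher on every mutant array than on every WT array but missed the threshold against w1118 (adjusted p = 0.0577 and 0.0519). Against the mean of both WT strains, 4 of the 20 probe sets passed among controls, beside 3.88% of all probe sets. The 4 were 2 Mgstl probe sets (2.59 and 2.08 log2, limma adjusted p = 0.0199 and 0.0313), GstT3 (1.78, adjusted p = 0.036) and, as lower, GstE11 (-1.91, adjusted p = 0.0365). Among irradiated embryos 4 passed, all higher in the mutant, beside 2.85% of all probe sets. The 4 were the same 2 Mgstl probe sets (2.24 and 2.18 log2, limma adjusted p = 0.0317 and 0.0324), GstZ1, of the zeta class that acts in tyrosine breakdown (1.97 log2, limma adjusted p = 0.0328), and 1 of 3 probe sets of the omega class gene GstO2 (1.66 log2, limma adjusted p = 0.0402). On the irradiated yw array GstZ1 read 34.7, against 185 and 273 in irradiated w1118. That GstO2 probe set read 17.7 there, against 103 and 85.2 in irradiated w1118. Against irradiated w1118 with the day block, the 2 were 0.83 and 0.79 log2 higher in the mutant and did not pass (limma adjusted p = 0.0949 and 0.134). The brightest GstO2 probe set was not called against both WT strains (1.09 log2, limma adjusted p = 0.0635). Every mutant array lay outside the WT range for 8 of these 20 probe sets, against the 14.5% of all probe sets given above.

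None of the genes listed around these enzymes passed for irradiation. Of 5 tested genes of glutathione synthesis and use, among them Gclm (the modifier subunit of the enzyme that starts glutathione synthesis) and Trxr1 (thioredoxin reductase), 0 passed limma in any of the 7 comparisons. In WT irradiation 1 of the 5, Grx1, had an unadjusted p under 0.05, beside 8.15% of all probe sets. Grx1 went from 47.0 to 185 in yw and from 97.4 and 257 to 180 and 388 in w1118 (1.02 log2, limma adjusted p = 0.331). In the mutant it went from 81.5 and 206 to 70.7 and 115. The difference in response was 1.49 log2 (SE 0.52) and was not called (limma adjusted p = 0.9998). The regulators cnc, maf-S and Keap1 changed by -0.18, 0.17 and -0.08 log2 in irradiated WT embryos, and 0 of 3 passed (0 unadjusted). Keap1 read 61.9 and 25.7 in yw against 212 to 369 in w1118 and 193 to 257 in the mutant, and was lower in yw than in w1118 by a log2 difference of -2.27 (limma adjusted p = 0.0164).

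Of 6 tested detoxification genes, all of the cytochrome P450 family, 0 passed in WT irradiation (1 at an unadjusted p under 0.05, beside 8.15% of all probe sets). Against w1118 the P450 gene Cyp6d5 was lower in the mutant, with 149 to 244 against 871 to 1602 (log2 difference -2.36, limma adjusted p = 0.00879), and Cyp6d4 was higher, with 153 to 247 against 48.3 to 64.5 (1.55 log2, limma adjusted p = 0.0332). Cyp6a8 was lower in mutant than in WT controls (-1.44 log2, limma adjusted p = 0.0429). It read 211 and 344 in mutant controls, 533 and 593 in w1118 controls and 1013 in the yw control. Among irradiated embryos (-0.95 log2, limma adjusted p = 0.130) and against w1118 (-0.67 log2, limma adjusted p = 0.209) it did not pass. Cyp4p1 was 178 and 462 in yw against 2.6 to 5.5 in w1118 (4.03 log2, limma adjusted p = 0.00408), with 30.8 to 49.8 in the mutant. Of the antioxidant enzyme genes Sod2, Cat and Prx3, 0 passed limma in any comparison, with 2 of 3 at an unadjusted p under 0.05 for the mutant against w1118, beside 20.9% of all probe sets.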

How the data were processed

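Whole-embryo RNA from 10 collections was measured on 10 Affymetrix DrosGenome1 arrays. The deposited intensities are linear signals per probe set, and the submitters' processing notes name MAS5 for them. Neither its version nor detection calls are given in the sources used here. Each array came with the same 2% trimmed mean (250.04), as a global scaling by the authors leaves it. Of 14010 probe sets 44 controls were left out. Signals were taken as log2(signal + 14.5), the 20th percentile of all values, and the 8379 probe sets above the 40th percentile of mean signal were fitted with limma 3.58.1 in R 4.3.3 (eBayes with a trend).

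Irradiation effects used each set as a fixed block, after the series' own description of paired sets. Deviations from genotype by treatment means correlated within sets at 0.43 to 0.65. Those means pool yw and w1118, so the WT values also hold strain and day differences. With only 2 mutant sets, both give the same value (0.43) by construction. Strain comparisons used strain by treatment means with set as a random block (consensus correlation 0.28). Two-sided p-values were adjusted by Benjamini-Hochberg over all 8379 probe sets, with a threshold of 0.05, and measure the spread between these arrays. The scripts were tested on simulated data. Members and gene lists were chosen with earlier results of these data known. Named genes are all members, other glutathione transferases that passed or had 1 of the 3 largest changes in a comparison, listed pathway genes that passed, and the 5 genes most correlated with GstD1 and with GstE7. GstE2 and GstE8, given as cluster neighbours, and Grx1, sna, Doc1, gcm and srp were chosen after their values were seen. Of several probe sets of a gene, the brightest stands for it in counts over genes. Gene order comes from the Release 6 table, where all 10 members matched by symbol. Coordinates are left out because no source names the array's genome build.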

Additional observations from a re-analysis of the deposited data

Results flagged for a closer look

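The irradiation change of GstE5 was positive in all 3 WT sets (0.91, 0.52 and 0.34 log2) and negative in both mutant sets (-0.28 and -0.10). The WT mean exceeded the mutant mean by 0.78 log2, and limma did not call the difference (SE 0.57, adjusted p = 0.9998). GstO3 ran the other way, with WT sets at -0.15, -0.62 and -0.04 and mutant sets at 0.36 and 0.24, a difference of -0.57 log2 that was not called either (SE 0.59, adjusted p = 0.9998). Neither is among the 10 members. Both were picked for these signs among the 29 tested glutathione transferase probe sets. How many of all probe sets show such signs was not counted.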

How the results depend on the processing

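The counts of members called for WT irradiation, mutant irradiation, their difference and yw against w1118 were 0 under every alternative run. Without a replicate block the members called were 0 for each irradiation comparison, 2 and 3 for the mutant against WT among controls and irradiated embryos, 4 against w1118 and 0 for yw against w1118. Of all 8379 probe sets, that run called 230 as higher and 90 as lower among controls and 168 and 72 among irradiated embryos. Against w1118 it called 384 and 233 of them, beside 217 and 77 in the main fit. Without a variance trend the count of members among controls was 1, beside 190 higher and 84 lower of all 8379 probe sets. With hybridization day as a fixed block, which leaves out yw, the count of members was 5 among controls, 5 among irradiated embryos and 7 over treatments, with the shares of all probe sets given above. Leaving out 1 set in turn gave 0 to 3 members among controls, 0 to 5 among irradiated embryos and 0 to 3 against w1118. Against w1118 it was 1 without w1118 set 2, and 0 without either mutant set. Calls over all 8379 probe sets moved in these runs too, and the counts of members are to be read beside them. Without w1118 set 1 they were 363 higher and 129 lower among controls and 357 and 137 among irradiated embryos. Without the yw set they were 53 and 13, and 17 and 13. Against w1118 they rose without w1118 set 1, fell without w1118 set 2 and ended without either mutant set. In those strain fits the consensus correlation of all arrays was kept, and a lone set was assumed to vary like the others.

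Quantile normalization gave 4 members among irradiated embryos, beside 248 higher and 87 lower of all 8379 probe sets. Values that changed sign were uncalled. With the day block GstD2 was 0.45 log2 among irradiated and GstE6 0.16 among control embryos. With quantile normalization the GstD9 difference in response was 0.0779 and GstE3 among irradiated embryos 0.23. GstE3 was also 0.00642 there with a pseudocount of 1, and GstE7 0.0148 in mutant irradiation with a pseudocount of 50. Ranges over the sets left out were, for WT irradiation, -0.23 to 1.67 (GstD2), -0.0768 to 0.20 (GstD9) and -0.95 to 0.29 (GstE3). For mutant irradiation they were -0.11 to 0.28 (GstD9), -0.48 to 0.66 (GstE1), -0.68 to 0.67 (GstE7) and -0.34 to 0.77 (GstS1). For the difference in response they were -0.22 to 0.17 (GstD9), -0.60 to 0.55 (GstE1), -0.26 to 1.10 (GstE7) and -0.91 to 0.19 (GstS1). For the mutant against WT they were -0.51 to 0.16 (GstE6) among controls, and -1.08 to 0.45 (GstD2), -0.91 to 0.27 (GstE3) and -0.47 to 1.28 (GstE7) among irradiated embryos. They were -0.85 to 0.49 for GstE6 against w1118 and -0.11 to 0.57 for GstE7 in yw against w1118. The causes were not tested.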
